A study of Mus musculus with 8 samples.

Results

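Chemokines are small secreted proteins that guide leukocytes along gradients, and chemokine receptors are the G protein-coupled receptors that read them. The genes described here are the chemokine ligands and receptors of an advanced mouse atherosclerotic lesion, chosen by their symbols alone: the Ccl, Cxcl, Cx3cl1 and Xcl1 ligands, the Ccr, Cxcr, Cx3cr1 and Xcr1 receptors, and the atypical receptors named Ackr. The rule found 61 genes, 39 ligands and 22 receptors, among the 24391 gene symbols of the count table. Of these, 46 had at least 10 counts in 4 or more of the 8 libraries and are described in detail.

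Ligands fall into families by the spacing of their first cysteines. CC chemokines mostly act on monocytes and lymphocytes. CXC chemokines with a glutamate-leucine-arginine (ELR) motif act on neutrophils through CXCR2, and the interferon-inducible CXC ligands act on T cells through CXCR3. Atypical receptors bind chemokines without G protein signalling and remove or move them. In atherosclerosis the CCL2 and CCR2 and the CX3CL1 and CX3CR1 axes are known for bringing monocytes into plaques. IL-1β is a cytokine known to induce many chemokine genes through NF-κB.

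The samples were lesions of the brachiocephalic artery, the vessel leaving the aortic arch, from C57BL/6 mice on a Western diet for 18 weeks. All mice were described as wild type in a smooth muscle cell lineage tracing background. Of the animals, 4 received an antibody against IL-1β (IL1_AB) and 4 received control immunoglobulin (IgG), 1 library per animal. The labels give no age, no dose or duration of the antibody, no driver for the lineage tracing and no further allele, and they describe the RNA as coming from a mixture of cell types. The comparison asks which transcripts differ between lesions with IL-1β neutralised and control lesions.

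Libraries held 20137336 to 29453014 counts, and the depth did not differ detectably between groups (two-sided exact permutation test, p = 0.229, smallest possible p 0.0286). All 6 smooth muscle markers, all 10 macrophage markers found in the table and all 6 endothelial markers had counts in every library, at summed levels of 1434 to 3929, 3900 to 10500 and 1379 to 1679 CPM (counts scaled to a common library size). Of the 6 epithelial markers, Epcam and Krt5 were at 0 in some libraries, and their summed level was 8.97 to 40.85 CPM. Tissue makeup differed between animals of the same group: the summed macrophage markers were lowest in IgG animal 1 (3900 CPM) and highest in IgG animal 3 (10500 CPM). The 10 thymus markers summed to 159.6 and 139.6 CPM in IgG animal 1 and antibody animal 2, against 81.85 to 106.1 CPM elsewhere. In antibody animal 3 the brown fat markers reached 4532 CPM, against 1280 to 1990 CPM in the others. In such bulk tissue, fewer cells of a type and less RNA per cell cannot be told apart.

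Most chemokine and receptor transcripts had lower mean levels in antibody-treated lesions, and the groups overlapped in every fitted gene except Cx3cr1. No gene of the family passed an adjusted p of 0.05 (edgeR quasi-likelihood test, Benjamini-Hochberg over 15980 genes), where 0% of all genes passed. The log2 fold change, antibody relative to IgG, was below 0 for 36 of the 46 genes fitted, against 52.3% of all genes, and its median was -0.39, against -0.01 over all genes. Those 46 are the genes abundant enough to fit, and 3 of them reached 10 counts in all 4 IgG libraries but not in all 4 antibody libraries and 1 the reverse, so their count is a description of this filtered set. Unadjusted p-values under 0.05 were found for 4 genes, among them Ccl6, Cx3cr1 and Cxcl13, all of them lower with the antibody, against 3.19% of all genes (2.06% lower and 1.13% higher). DESeq2 gave 5 genes of the family at an unadjusted p under 0.05, where it gave 565 of all 15980 genes. Limma-voom with sample quality weights gave 25, where it gave 2772 of all genes. In either, 0 genes of the family passed an adjusted p of 0.05.

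The number of family genes at an unadjusted p under 0.05 in edgeR rested on single animals. Without IgG animal 1 it was 15, without IgG animal 2 or antibody animal 4 it was 8, without IgG animal 4 or antibody animal 3 it was 2, and without antibody animal 1 it was 1. Over all genes such calls moved too, from 509 with all animals to 1517 without IgG animal 1 and 682 without IgG animal 2. The number of family genes with a log2 fold change below 0 was steadier, at 32 to 39 of 46 with any 1 animal left out and 36 of 46 under each scaling. The 95% interval lay within a 2-fold change in either direction for 19 of the 46 genes, and its median half-width was 0.69 on the log2 scale.

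**Figure D1:**
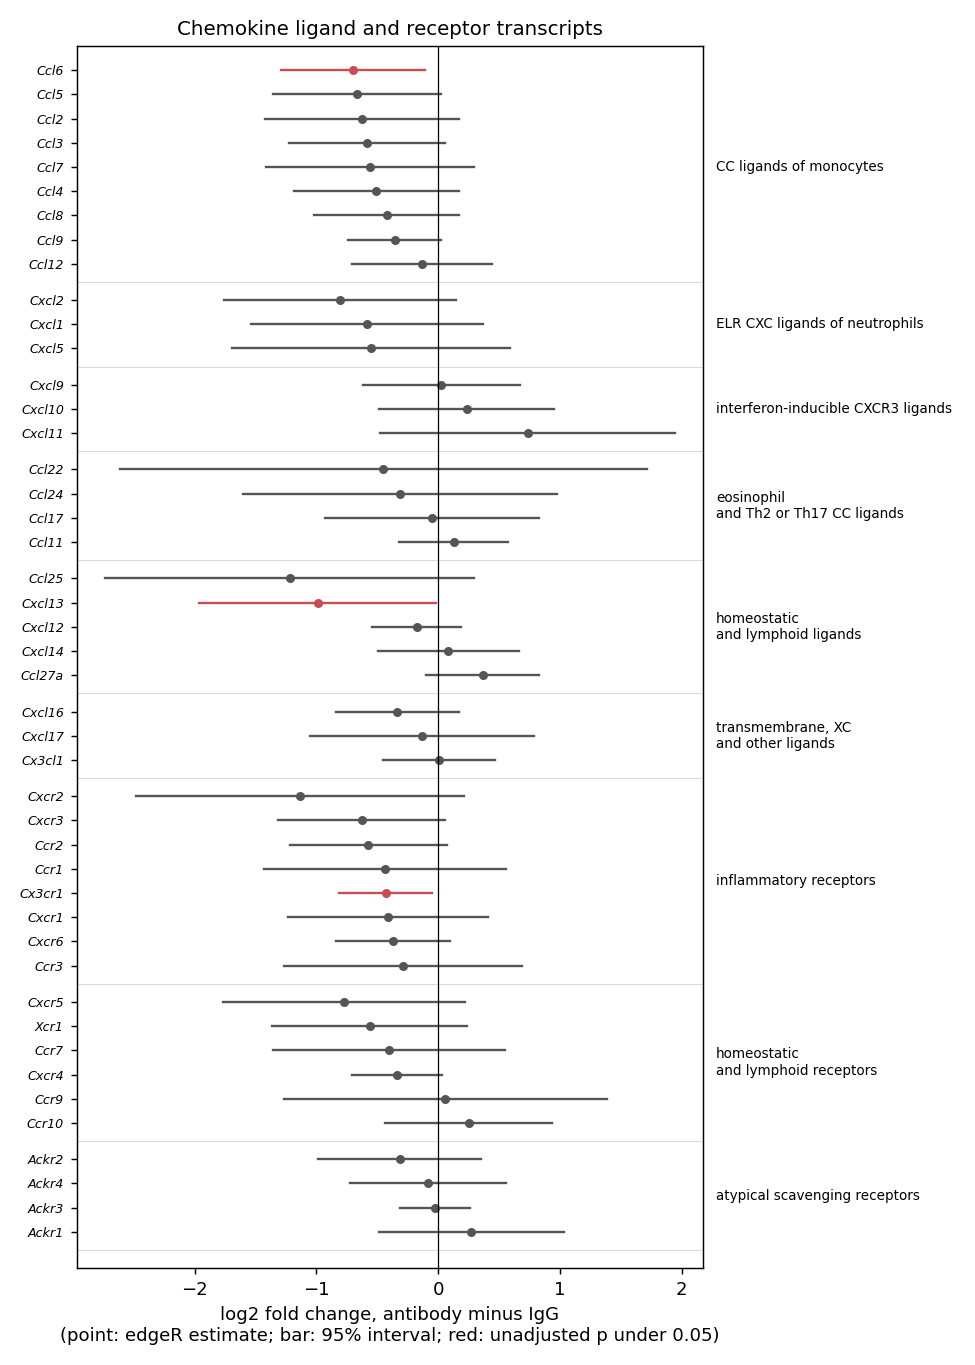
Log2 fold change (x axis, antibody minus IgG) of the fitted chemokine and receptor genes except 1 that is not reported, grouped by role; points are edgeR estimates, bars are 95% intervals and red marks an unadjusted p under 0.05. The CC ligands of monocytes and the inflammatory receptors drawn all have estimates below 0, and the 3 CXCR3 ligands have estimates above 0.

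The 9 monocyte-directed CC ligands included the most abundant chemokine transcript per kilobase, and all 9 had estimates below 0 (median -0.56), though that of Ccl12 turned to 0.07 without antibody animal 1, with 1 at an unadjusted p under 0.05. That gene was Ccl6, a myeloid CC chemokine made constitutively by macrophages, at chromosome 11, 83401388 to 83406589, of the mm9 build. Ccl6 had 170, 254, 362 and 319 CPM in IgG animals 1 to 4 and 112, 158, 188 and 221 CPM in antibody animals 1 to 4. Its groups overlapped, because IgG animal 1 lay below antibody animals 3 and 4. The means were 276 ± 83.8 and 170 ± 46.3 CPM (SD, n = 4 each), a ratio of 0.615. The log2 fold change was -0.70 ± 0.26 (SE, 95% interval -1.29 to -0.11), with an unadjusted p of 0.0252 and an adjusted p of 0.9997 (edgeR). Its mean level was 155 CPM per kilobase of exon over all 8 animals. The next ligands on that scale were Cxcl16 at 53.1, Ccl8 at 52.0, Cxcl12 at 42.4, Ccl9 at 27.3 and Cx3cl1 at 18.3 CPM per kilobase. Over the 8 animals the ranges of neighbours in this order overlapped, except those of Ccl6 and Cxcl16.

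**Figure D2:**
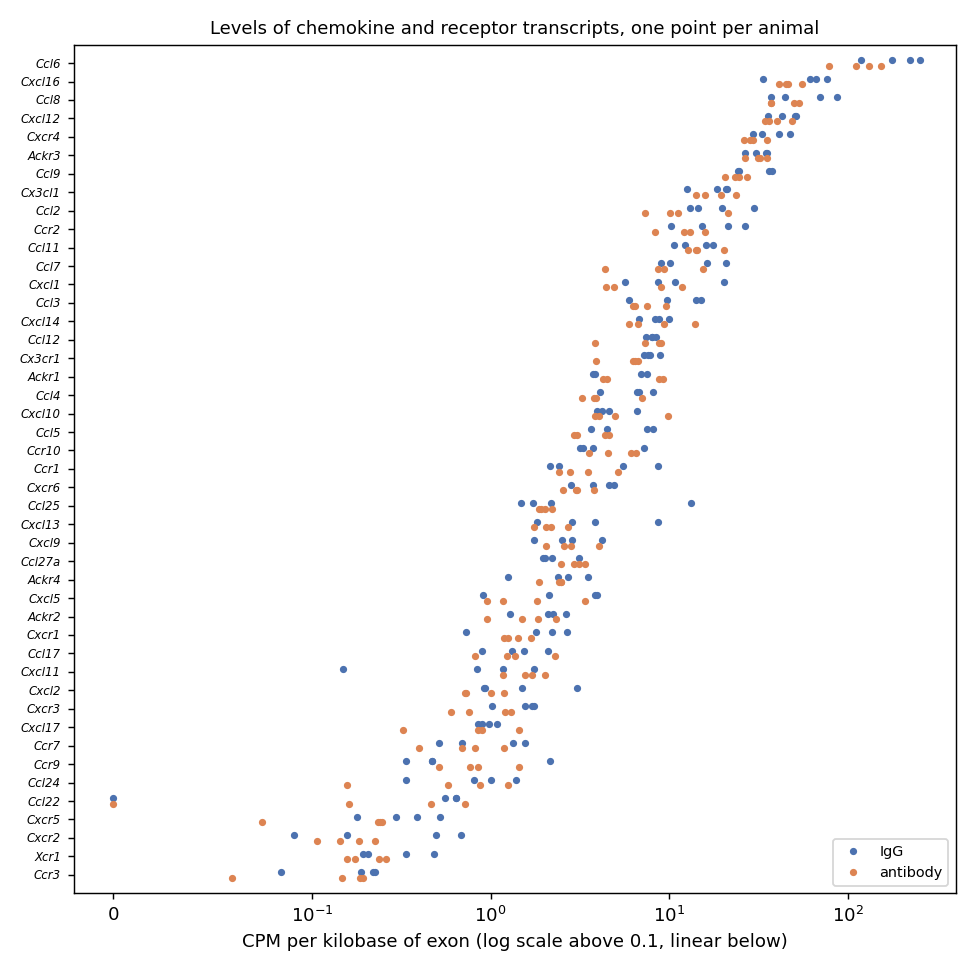
Level of each fitted gene, except 1 that is not reported, in CPM per kilobase of exon (x axis, logarithmic above 0.1 and linear below), 1 point per animal, ordered by the mean over animals. Ccl6 has the highest mean of all, and the IgG and antibody points of most genes overlap.

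Ccl9, a second constitutive myeloid chemokine and a Ccr1 ligand, had 74.2, 73.4, 109 and 113 CPM in IgG animals and 61.4, 74.1, 70.5 and 82.1 CPM in antibody animals. IgG animals 3 and 4 stood above all others, and IgG animals 1 and 2 lay within the antibody range. Its log2 fold change was -0.36 ± 0.17. Ccl5, or RANTES, a product of T cells and macrophages, had 2.39, 3.97, 1.95 and 4.32 CPM in IgG animals and 1.56, 2.31, 1.62 and 2.43 CPM in antibody animals. IgG animals 2 and 4 were above every antibody animal, and the log2 fold change was -0.66 ± 0.31.

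Ccl2, the main ligand of Ccr2 on classical monocytes, had 11.7, 10.6, 24.0 and 16.0 CPM in IgG animals and 5.91, 8.97, 8.18 and 17.2 CPM in antibody animals. The 3 lowest values were in antibody animals, and antibody animal 4 exceeded all IgG animals but the third. The log2 fold change was -0.63 ± 0.36 (95% interval -1.42 to 0.17), -0.34 without IgG animal 3 and -1.02 without antibody animal 4. Ccl7, a second Ccr2 ligand, had -0.56 ± 0.38, and Ccl12, the third mouse gene of this kind, had -0.14 ± 0.26. Ccl8 had 19.0, 22.6, 35.7 and 44.4 CPM in IgG animals and 19.0, 27.3, 19.0 and 25.4 CPM in antibody animals. IgG animals 3 and 4 were above the antibody range, IgG animal 2 was within it and IgG animal 1 was level with its lower end. Its log2 fold change was -0.42 ± 0.26, and -0.18 without IgG animal 4. Ccl3 and Ccl4, the macrophage inflammatory proteins, had log2 fold changes of -0.59 ± 0.29 and -0.51 ± 0.30.

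The highest of the 8 libraries was IgG animal 3 or 4 for 8 of these 9 ligands, and for 23 of the 46 fitted genes. The macrophage markers had the same high animals, with summed levels of 3900, 5625, 10500 and 8528 CPM in IgG animals 1 to 4 and 4795, 4669, 4907 and 6810 CPM in antibody animals 1 to 4. All 10 of those markers had estimates below 0 (median -0.32), against 52.3% of all genes. At an unadjusted p under 0.05 there was 1, against 3.19% of all genes, and no marker was at 0 in any library. The total over the 61 chemokine and receptor genes was 1075.5 to 1684.5 CPM in the IgG group and 962.8 to 1255 CPM in the antibody group. The part of macrophage content in the ligand values was not tested.

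**Figure D3:**
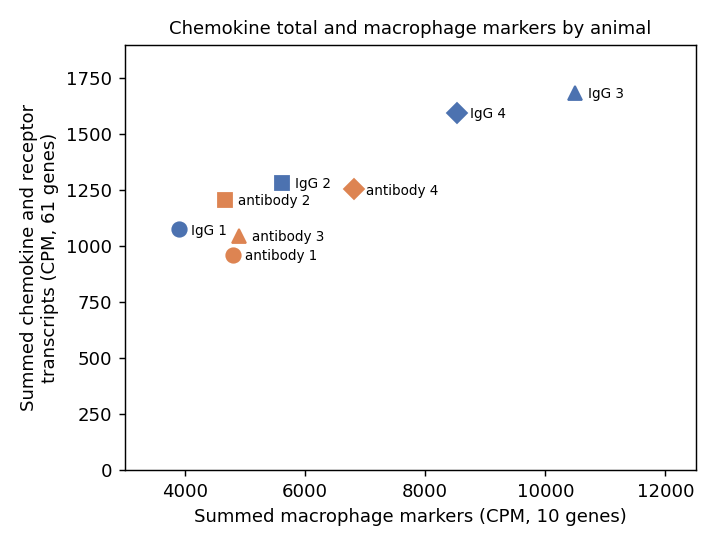
Summed CPM of the 61 chemokine and receptor genes (y axis) against the summed CPM of 10 macrophage markers (x axis), 1 point per animal, with blue for IgG and orange for antibody. IgG animals 3 and 4 are highest on both axes, IgG animal 1 is lowest in macrophage markers, and IgG animal 2 lies just above the antibody animals in the chemokine total.

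The monocyte ligands share their place in the genome. On chromosome 11 of mm9, Ccl2, Ccl7, Ccl11, Ccl12, Ccl8 and Ccl1 lie between 81849079 and 81993314, and Ccl5, Ccl9, Ccl6, Ccl3 and Ccl4 between 83339281 and 83478185. The 5 genes of the second cluster all had estimates below 0 (median -0.59). In the first, 4 of 5 fitted genes were below 0 (median -0.42), the exception being Ccl11. Counted this way, with gaps of up to 1000000 bases, 39 of the 61 genes fall into 10 clusters.

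The ELR ligands of neutrophils were low in the lesions. Cxcl1, the mouse KC gene, had 5.37, 8.16, 19.2 and 10.2 CPM in IgG animals and 4.2, 8.52, 4.64 and 11.2 CPM in antibody animals. Cxcl2 had 0.992, 1.01, 3.32 and 1.62 CPM and 0.781, 1.09, 0.788 and 1.3 CPM in the same order. In both genes IgG animal 3 was the highest of the 8, and the other animals of the 2 groups overlapped. The log2 fold changes were -0.58 ± 0.43 for Cxcl1 and -0.81 ± 0.43 for Cxcl2, and without IgG animal 3 they were -0.14 and -0.29. Cxcl5 had -0.55 ± 0.51. Cxcl3 and Cxcl15 stayed at 8 counts or fewer in every library and were not fitted.

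The CXCR3 ligands differed from these in the sign of their estimates. Cxcl10 had 4.31, 7.24, 5.05 and 4.62 CPM in IgG animals and 4.44, 4.21, 10.8 and 5.5 CPM in antibody animals, with antibody animal 3 alone above the IgG range. Its log2 fold change was 0.23 ± 0.32, and -0.17 without antibody animal 3. Cxcl11 had 0.239, 2.81, 1.88 and 1.35 CPM and 2.73, 1.89, 3.24 and 2.51 CPM. The value of IgG animal 1 was the lowest of all animals. The log2 fold change was 0.74 ± 0.54 (95% interval -0.47 to 1.95), 0.37 without IgG animal 1 and 1.16 without IgG animal 2. Cxcl9 had 8.22 ± 2.98 CPM in the IgG group and 8.37 ± 2.48 CPM in the antibody group, a log2 fold change of 0.03 ± 0.29. Whether the CXCR3 ligands differ from the ELR ligands in their response was not tested.

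Both sets are textbook NF-κB targets and both lie on chromosome 5 (mm9, 91188324 to 91334964 and 92750357 to 92792322). The stretches just before the starts are shown for Cxcl1, Cxcl2, Cxcl3, Cxcl9 and Cxcl10. Cxcl5, Cxcl15 and Cxcl11 of these sets are not shown. No match to the motifs below was recorded for them, which would also hold for a gene without a promoter found. RefSeq promoters were found for 45 of the 61 genes (GRCm38.p6), and the 250 bases before each start were searched on both strands for an NF-κB motif (GGGA, any base, TTTCC), for a wider form that includes every match of it (GGGA, any 4 bases, CC) and for an interferon response motif (GAAA, any 2 bases, GAAA). The AP-1 motif TGANTCA was searched too and is not capitalised. Capitals mark matches to the first 3 motifs, and each sequence ends at the last base before the annotated start. The stretches are chr5:90891145-90891244 (plus strand) for Cxcl1, chr5:90903799-90903898 (plus) for Cxcl2, chr5:90786001-90786100 (plus) for Cxcl3, chr5:92328080-92328219 (minus) for Cxcl9 and chr5:92348890-92349109 (minus) for Cxcl10.
Cxcl1: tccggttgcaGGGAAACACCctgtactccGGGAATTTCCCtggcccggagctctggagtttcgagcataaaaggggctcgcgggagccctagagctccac
Cxcl2: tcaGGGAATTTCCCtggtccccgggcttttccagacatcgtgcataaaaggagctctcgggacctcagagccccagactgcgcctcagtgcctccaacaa
Cxcl3: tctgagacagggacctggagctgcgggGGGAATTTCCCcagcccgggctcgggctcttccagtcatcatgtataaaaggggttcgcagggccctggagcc
Cxcl9: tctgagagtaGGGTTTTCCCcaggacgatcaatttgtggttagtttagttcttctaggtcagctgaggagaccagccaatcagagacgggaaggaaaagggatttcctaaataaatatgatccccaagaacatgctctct
Cxcl10: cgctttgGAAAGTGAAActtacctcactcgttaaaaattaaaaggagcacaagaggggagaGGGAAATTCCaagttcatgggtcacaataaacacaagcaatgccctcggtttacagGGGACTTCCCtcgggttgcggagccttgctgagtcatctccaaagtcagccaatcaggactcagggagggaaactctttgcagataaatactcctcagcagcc

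Cxcl1, Cxcl2 and Cxcl3 carry the same 10 letters, GGGAATTTCC, starting 71, 97 and 73 bases before the start, and they overlap a match of the wider motif on the other strand. Among all 32851 promoters of the table, 0.356% hold the NF-κB motif in this window. Of the 45 matched genes, 4 do, the fourth being Ccr3. The wider form is common, in 17.6% of all promoters and in 19 of the 45 genes, among them Cxcl9, Cxcl10 and Cxcl13. The interferon response motif is in 2.98% of all promoters and in 3 of the 45, Cxcl10, Cxcl14 and Ccl19, and the AP-1 motif in 6.75% and in 6 of the 45, among them Ccl9 and Cxcl10. The shares over all are per promoter, while a family gene counted if any of its promoters matched, so the units are not alike. Such matches describe the letters and do not show binding. The 2 genes with the smallest p, shown for comparison, hold none of these motifs in this window (chr11:83593088-83593187, minus, for Ccl6 and chr9:120068297-120068396, minus, for Cx3cr1).
Ccl6: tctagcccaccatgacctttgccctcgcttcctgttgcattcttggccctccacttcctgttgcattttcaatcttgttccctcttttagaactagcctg
Cx3cr1: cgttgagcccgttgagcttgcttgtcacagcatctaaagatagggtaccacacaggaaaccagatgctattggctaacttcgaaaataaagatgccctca

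**Figure D4:**
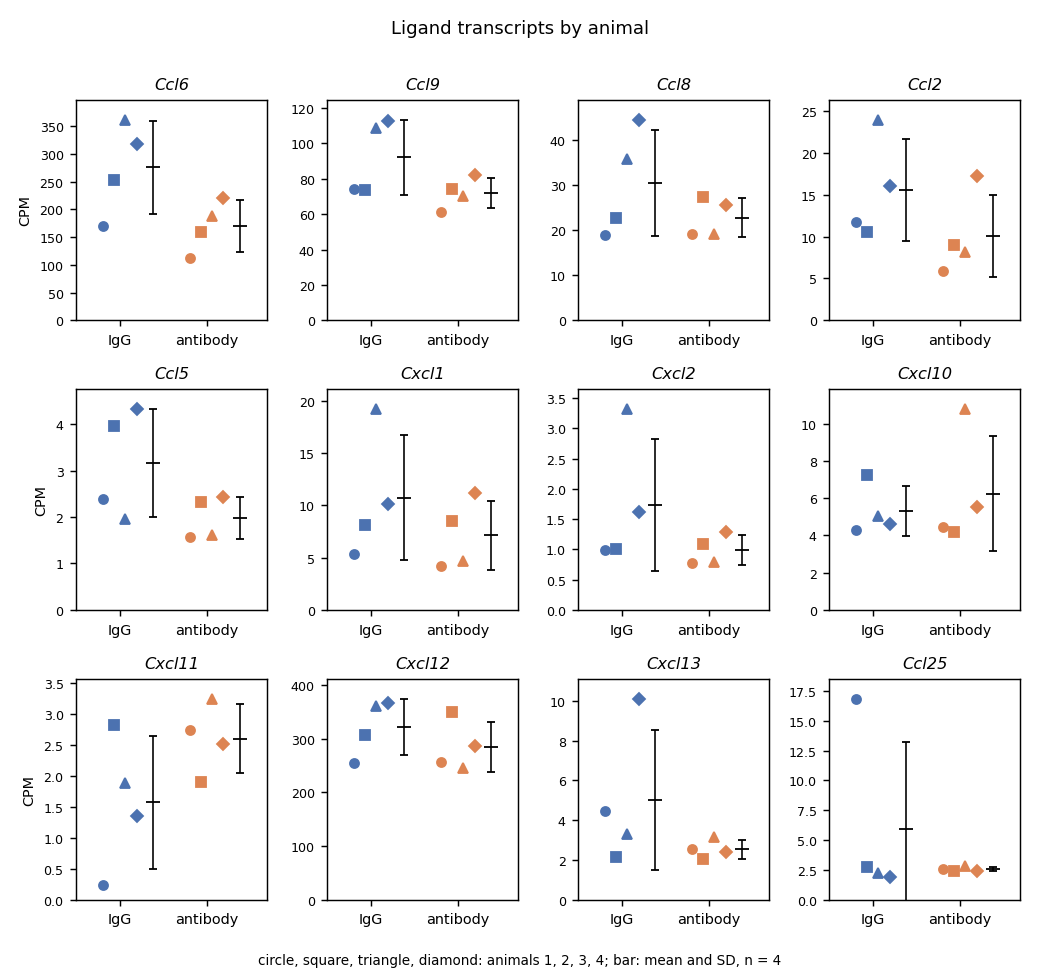
CPM of 12 ligand genes (y axis, from 0) in each animal, blue for IgG and orange for antibody, with marker shape giving the animal's number; black bars are the mean and SD (n = 4), drawn no lower than 0. IgG animals 3 and 4 lead in Ccl9 and Ccl8, IgG animal 4 stands out in Cxcl13 and IgG animal 1 in Ccl25.

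Among the homeostatic and lymphoid ligands, Cxcl12 was the most abundant in CPM, and Cxcl13 and Ccl25 had the largest estimates. Cxcl12, made by stromal and smooth muscle cells and read by Cxcr4, had 255, 307, 361 and 366 CPM in IgG animals and 258, 350, 247 and 287 CPM in antibody animals. Its groups overlapped over most of their range, with a log2 fold change of -0.18 ± 0.16 (95% interval -0.54 to 0.19). Cxcl13, the B cell chemokine of lymphoid follicles, had 4.45, 2.12, 3.32 and 10.1 CPM in IgG animals and 2.54, 2.03, 3.15 and 2.39 CPM in antibody animals. IgG animal 4 was the highest, and IgG animal 2 lay within the antibody values. Its log2 fold change was -0.99 ± 0.43 (unadjusted p = 0.0469, adjusted p = 0.9997, edgeR), and -0.39 without IgG animal 4. Cxcr5, the receptor of Cxcl13 on B cells, had 1.37, 1.01, 0.469 and 0.776 CPM in IgG animals and 0.195, 0.631, 0.613 and 0.648 CPM in antibody animals, a log2 fold change of -0.77 ± 0.44, and -0.50 without IgG animal 1. The 6 B cell markers beside them summed to 5.59 to 19.8 CPM in the IgG group and 4.59 to 7.73 CPM in the antibody group. All 6 had estimates below 0 and 3 had an unadjusted p under 0.05, against 52.3% and 3.19% of all genes. Pax5, a B cell transcription factor, had 1.27, 0.922, 0.108 and 0.607 CPM in IgG animals. In antibody animals it had 0, 0.140, 0.875 and 0.729 CPM, so its groups overlapped. The 5 markers listed for lymph node stroma and high endothelium summed to 6.67 to 8.93 CPM in the IgG group and 3.94 to 5.66 CPM in the antibody group. Among them Cr2 and Fcer2a are also B cell genes, so this list is not separate from the B cell markers. The largest part of each sum was Cr2, at 2.70 to 5.41 CPM in the IgG group and 2.32 to 3.61 CPM in the antibody group. All 4 fitted ones had estimates below 0 (median -0.69), with 0 at an unadjusted p under 0.05. The part of B cell or lymphoid tissue content in the Cxcl13 and Cxcr5 values was not tested.

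Ccl25, the chemokine of thymic and gut epithelium, had 16.8, 2.77, 2.20 and 1.89 CPM in IgG animals and 2.59, 2.38, 2.80 and 2.43 CPM in antibody animals. A single animal, IgG animal 1, set its log2 fold change of -1.22 ± 0.68, which was 0.16 without that animal. Ccr9, its receptor on thymocytes, had 9.44, 1.48, 2.06 and 2.06 CPM in IgG animals and 3.76, 6.31, 3.37 and 2.27 CPM in antibody animals. IgG animal 1 and antibody animal 2 were the highest for Ccr9. The same animals had the highest levels of the thymocyte gene Rag1, at 46.3 and 38.8 CPM, against 0.0721 to 7.61 CPM in the rest. Foxn1, the defining transcription factor of thymic epithelium, was at 0 in every library except IgG animal 1 (0.582 CPM), and the thymic epithelial proteasome gene Psmb11 had 3.97 CPM there and at most 0.144 CPM elsewhere. Ptcra, the pre-T-cell receptor gene of thymocytes, had 5 and 8 counts in IgG animal 1 and antibody animal 2 and 0 counts elsewhere. The part of thymus tissue in the Ccl25 and Ccr9 values was not tested.

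Cxcl14 and Ccl27a, both made by epithelial and stromal cells, had log2 fold changes of 0.08 ± 0.26 and 0.37 ± 0.21. Ccl21a, Ccl21b, Ccl21c, Ccl27b and Ccl28 had 0 counts in all libraries. The Ccl21 and Ccl27 genes are near-identical copies, and reads placed at several sites were not counted, so their levels, Ccl27a included, are uncertain. Ccl28 is annotated only on 13_random, a stretch without a set place on its chromosome, so its level is uncertain as well. Ccl19, the other Ccr7 ligand, had at most 16 counts and was not fitted. It is annotated on both strands of chromosome 4 (42248504 to 42770050), as Ccl21a and Ccl27b are, so its level is uncertain too. Ccr7 itself, on mature dendritic and naive T cells, had 1.37, 1.01, 3.07 and 2.63 CPM in IgG animals and 1.37, 1.61, 0.788 and 2.35 CPM in antibody animals. The groups overlapped, with a log2 fold change of -0.40 ± 0.43, -0.13 without IgG animal 3 and -0.69 without antibody animal 4.

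The transmembrane chemokines were abundant. Cxcl16, a scavenger receptor for oxidised lipoprotein and the ligand of Cxcr6, had 82.4, 150, 186 and 161 CPM in IgG animals and 113, 111, 101 and 136 CPM in antibody animals. IgG animals 2 to 4 were above all antibody animals and IgG animal 1 below them, and the log2 fold change was -0.33 ± 0.22, -0.52 without IgG animal 1 and -0.19 without IgG animal 3. Cx3cl1, or fractalkine, had 39.3, 58.1, 65.3 and 66.4 CPM in IgG animals and 49.5, 74.5, 44.2 and 61.5 CPM in antibody animals. Its estimate was 0.00 ± 0.21 with a 95% interval of -0.46 to 0.47, and its sign changed with the animals included. Cxcl17, a mucosal chemokine, had 0.650, 0.830, 0.685 and 0.742 CPM in IgG animals and 0.683, 0.245, 1.09 and 0.648 CPM in antibody animals, with overlapping groups (-0.13 ± 0.41).

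Of the CC ligands of eosinophils and polarised T cells, 4 were fitted and none had an unadjusted p under 0.05. Ccl11, or eotaxin, had 17.2, 11.3, 13.1 and 18.8 CPM in IgG animals and 13.7, 21.8, 15.2 and 15.3 CPM in antibody animals, with overlapping groups and a log2 fold change of 0.13 ± 0.20. Ccl24 had 1.78, 1.29, 0.433 and 1.05 CPM and 1.61, 1.12, 0.744 and 0.202 CPM (-0.31 ± 0.58). Ccl17 and Ccl22, the Ccr4 ligands of dendritic cells, had mean levels under 1 CPM in both groups. Ccl22 had no count in IgG animal 2 or antibody animal 3.

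Inflammatory receptors had estimates below 0 in all 9 fitted genes (median -0.44). The highest library was an IgG animal for all 9. Cx3cr1, the fractalkine receptor of patrolling monocytes and resident macrophages (chromosome 9, 119957801 to 119977414), had 29.3, 33.2, 28.5 and 27.0 CPM in IgG animals and 25.1, 24.3, 14.7 and 23.6 CPM in antibody animals. All 4 antibody values were below all 4 IgG values. Cx3cr1 was the 1 fitted gene of the family with separate groups, where 1.25% of all genes had every antibody value lower and 0.713% had every antibody value higher. The means were 29.5 ± 2.63 and 21.9 ± 4.88 CPM (SD, n = 4 each), and the log2 fold change was -0.43 ± 0.17 (95% interval -0.81 to -0.05, unadjusted p = 0.0313, adjusted p = 0.9997, edgeR). Antibody animal 3 was the lowest, and without it the log2 fold change was -0.28. The IgG values of Cx3cr1 were close together, and the summed macrophage markers in the same 4 animals ran from 3900 to 10500 CPM. Most of that sum was Lyz2, at 2673 to 7955 CPM, while the marker Mrc1 ran from 166 to 262 CPM. The part of macrophage content in the Cx3cr1 values was not tested. Cx3cl1, the ligand of Cx3cr1, had nearly equal group means, as given above.

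Ccr2, the receptor of Ccl2 and a marker of classical monocytes, had 54.8, 36.9, 95 and 76.2 CPM in IgG animals and 43.2, 57.1, 29.8 and 46.7 CPM in antibody animals. IgG animals 3 and 4 were the highest, and IgG animal 2 was below 3 of the antibody animals. Its log2 fold change was -0.57 ± 0.29 (95% interval -1.22 to 0.07), and -0.34 without IgG animal 3. Ccr1, the receptor of Ccl3, Ccl5 and Ccl9, varied more, from 6.12 to 24.6 CPM in the IgG group and 6.83 to 14.7 CPM in the antibody group (-0.44 ± 0.44, and 0.04 without IgG animal 3).

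Cxcr3, the T cell receptor of Cxcl9, Cxcl10 and Cxcl11, had 1.64, 2.81, 2.52 and 2.73 CPM in IgG animals and 1.22, 2.10, 0.963 and 1.94 CPM in antibody animals. IgG animals 2 to 4 were above the antibody range, and the log2 fold change was -0.63 ± 0.31, while the estimates of its ligands were above 0. The 7 T cell markers in the table summed to 76.47 to 166.2 CPM in the IgG group and 102 to 139.6 CPM in the antibody group. Of their estimates, 6 of 7 were below 0 (median -0.41), against 52.3% over all genes. At an unadjusted p under 0.05 there was 1, against 3.19% of all genes, and no marker was at 0 in any library. Most of each sum was Il7r, the 1 marker with an estimate above 0, at 46.3 to 159 CPM in the IgG group. IgG animal 1 had the lowest sum but the highest Cd3e (4.96 CPM) and Lck (10.4 CPM) of the 8 animals. The part of T cell content in the Cxcr3 values was not tested. Cxcr6, the Cxcl16 receptor of T cells and natural killer cells, had -0.37 ± 0.21. Cxcr2, the neutrophil receptor of the ELR ligands, had 0.479, 0.277, 1.51 and 2.09 CPM in IgG animals and 0.683, 0.561, 0.438 and 0.324 CPM in antibody animals. IgG animals 3 and 4 were high and IgG animals 1 and 2 lay within or below the antibody range, with a log2 fold change of -1.14 ± 0.60, and -0.61 without IgG animal 4. The 6 neutrophil markers in the table summed to 21.25 to 40.63 CPM in the IgG group and 23.15 to 27.97 CPM in the antibody group. Most of each sum was Csf3r, at 12.7 to 27.9 CPM in the IgG group and 15.2 to 16.8 CPM in the antibody group. Of 4 fitted markers, 2 had an estimate below 0, and Elane was at 0 in some libraries. The part of neutrophil content in the Cxcr2 values was not tested.

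**Figure D5:**
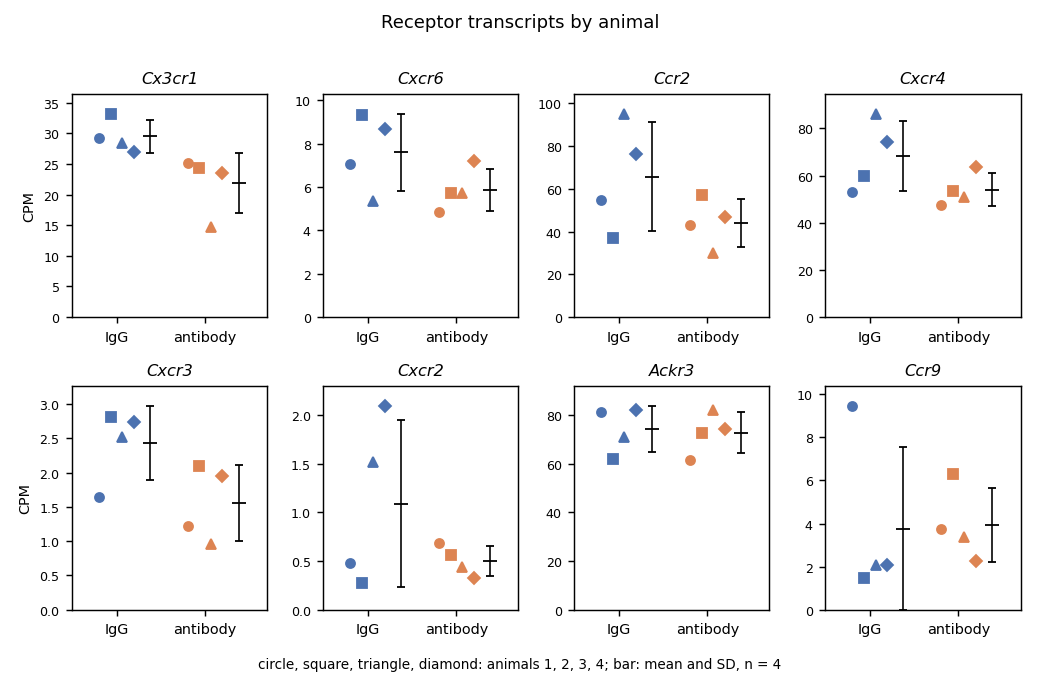
CPM of 8 receptor genes (y axis, from 0) in each animal, blue for IgG and orange for antibody, with marker shape giving the animal's number; black bars are the mean and SD (n = 4), drawn no lower than 0. The groups are separate for Cx3cr1, overlap for Ccr2 and Cxcr4, and cover the same range for Ackr3, while Ccr9 is highest in IgG animal 1 and antibody animal 2.

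Cxcr4, the Cxcl12 receptor carried by most leukocytes, was the most abundant receptor per kilobase at 33.7 CPM per kilobase. Below it were Ackr3 at 31.6, Ccr2 at 15.3, Cx3cr1 at 6.85 and Ackr1 at 6.10. The ranges of neighbours in this order overlapped over the 8 animals, except those of Ackr3 and Ccr2. Cxcr4 had 53.1, 59.8, 86.1 and 74.3 CPM in IgG animals and 47.5, 53.4, 51.1 and 63.8 CPM in antibody animals, with IgG animals 3 and 4 above the rest and a log2 fold change of -0.34 ± 0.16 (95% interval -0.71 to 0.03), and -0.21 without IgG animal 3. Of the 6 homeostatic and lymphoid receptors fitted, 4 had estimates below 0 and none an unadjusted p under 0.05. Xcr1, of cross-presenting dendritic cells, had -0.56 ± 0.36 (-0.25 without IgG animal 4), and Ccr10 0.25 ± 0.31.

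The 4 atypical receptors had small estimates (median -0.06), 3 of them below 0, and none had an unadjusted p under 0.05. Ackr3, which scavenges Cxcl12, had 81.1, 61.9, 71.1 and 82.0 CPM in IgG animals and 61.6, 72.7, 82.0 and 74.2 CPM in antibody animals. The groups covered the same range, and the log2 fold change of -0.03 ± 0.13 had a 95% interval of -0.31 to 0.26. Ackr1, the Duffy antigen receptor of venular endothelium, had 8.69, 4.33, 4.47 and 8.10 CPM and 10.6, 10.2, 5.21 and 4.94 CPM (0.27 ± 0.34). Ackr2, a scavenger of inflammatory CC chemokines, had 8.01, 3.87, 6.74 and 6.28 CPM and 4.49, 5.57, 2.89 and 7.04 CPM (-0.32 ± 0.30). Both overlapped. Ackr4, the scavenger of Ccr7 ligands, had -0.08 ± 0.29.

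Family relatives under other symbols had estimates of -0.49 to 0.08, and the signalling machinery below the receptors had -0.42 to 0.18. Of 7 fitted relatives, 6 were below 0 (median -0.15) and none had an unadjusted p under 0.05. Cklf, a chemokine-like factor, had -0.49 ± 0.22, with all antibody values below all IgG values, and Cmklr1, the chemerin receptor, had -0.29 ± 0.13. Pf4, the platelet chemokine CXCL4, had -0.36 ± 0.25 and Rarres2, which encodes chemerin, -0.15 ± 0.16. Over all genes, 52.3% were below 0 and 3.19% had an unadjusted p under 0.05. Of 30 signalling genes, 24 were below 0 (median -0.15), with 3 at an unadjusted p under 0.05. Among these were Rac2, a leukocyte GTPase of migration (-0.40 ± 0.14), and Arrb2, which desensitises the receptors (-0.38 ± 0.16). Vav1, a Rac activator, had -0.39 ± 0.18. None passed an adjusted p of 0.05.

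The 15 genes that were not fitted stayed at or under 34 counts per library. They included Ccl20, Ccl1 and Ccl26, the receptors Ccr4, Ccr6 and Ccr8, and Xcl1, and they were not tested.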

How the data were processed

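RNA from 8 lesions, 1 per animal, was sequenced. Counting by the authors used featureCounts 1.4.6-p4, per the file headers, with exons of the UCSC mm9 annotation grouped by gene name and no option for strand, read pairs or multiple alignments. The deposited values are raw counts with exon lengths, plus alignments by status, in which multiply aligned and ambiguous reads are unassigned. Overlapping and antisense genes therefore cannot be fully told apart. Other tools named in the submitters' processing notes are STAR 3.0, CASAVA, DESeq2 and Subread. Among counts of 1 to 20, 65.5% to 68.9% were even, against 49.8% to 51.9% above 100, and the cause was not tested.

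Genes were kept by edgeR filterByExpr (minimum count 10, minimum total 15; 15980 genes) and scaled by TMM. Antibody and IgG were compared with the edgeR 4.0.16 quasi-likelihood F-test (R 4.3.3, robust, no covariate), adjusted by Benjamini-Hochberg over all genes kept. CPM use TMM-scaled library sizes. Standard errors come from the fold change and F statistic. DESeq2 1.42.0, limma 3.58.1 voom, other scalings, no filter, a replicate block and omission of animals were alternatives. On simulated counts for 15851 genes the test called 58.0% of genes changed by 1 on the log2 scale and 89.7% of those changed by 2, with 6 false calls. The changed genes were drawn at random from all genes kept, and no shift was shared between genes. These shares therefore need not hold for the chemokine family. The members and lists were chosen with earlier results of these data known. Values per animal follow a rule that chose 28 genes (the 8 smallest p, the 6 most abundant ligands and 6 receptors per kilobase, a panel of 12, and 2 per role); Ccr9 was added after its values were seen, and other genes are given by their estimate, mean or range. Some genes of these lists are not reported here by name, and the counts over lists include them. Of related lists, up to 4 genes by smallest p are named. Replicate numbers were not used as pairs in the main fit, because the labels do not say that they mark pairs. Nothing in the labels says how animals were housed or processed in batches. The exon length entered levels per kilobase only. No pair of libraries agreed within sampling noise (lowest chi-square per degree of freedom 26.5).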

Additional observations from a re-analysis of the deposited data

Results flagged for a closer look

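In 92 groups of 4 animals, 7 had a value whose distance from its nearest neighbour took up most of the group's range (Dixon's criterion). Chance flags about 5% of groups. Ccl25 had 16.8 CPM in IgG animal 1 against 1.89 to 2.77 CPM in the other IgG animals, and Ccr9 had 9.44 CPM there against 1.48 to 2.06 CPM. Ccr10, a receptor of skin-homing lymphocytes, had 12.5 CPM in IgG animal 2 against 5.47 to 6.43 CPM. Ccl22 had 0 CPM in IgG animal 2 against 1.01 to 1.16 CPM. Among antibody animals, Cx3cr1 had 14.7 CPM in animal 3 against 23.6 to 25.1 CPM, so the lowest value of the 1 gene with separate groups is also a value apart. Antibody animal 1 was low for Cxcr5, at 0.195 CPM against 0.613 to 0.648 CPM, and for Ackr4, at 3.95 CPM against 5.12 to 5.26 CPM.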

How the results depend on the processing

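Over 15 alternatives, 0 chemokine or receptor genes passed an adjusted p of 0.05, with a smallest adjusted p of 0.151 (Ccl9, limma-voom). Of the 46 genes, 30 kept the sign of their estimate in every alternative (26 lower, 4 higher) and 16 reversed in at least 1. DESeq2 called 8 genes of the whole table at an adjusted p under 0.05, against 0 by edgeR. With limma-voom, 2 genes passed, unadjusted calls numbered 2772 over all genes against 509 and 25 in the family, and the log2 fold changes of Ccl11 (-0.14), Ccl25 (0.18), Cxcl14 (-0.068) and Cx3cl1 (-0.19) reversed. Leaving out 1 animal at a time, the genes past an adjusted p numbered 0 to 1, unadjusted calls 310 to 1517 over all genes and 1 to 15 in the family.

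In the same omissions these log2 fold changes crossed 0: Ccl12 (-0.26 to 0.070), Cxcl10 (-0.17 to 0.42), Cxcl9 (-0.19 to 0.28), Ccl11 (-0.037 to 0.25), Ccl17 (-0.38 to 0.17), Ccl24 (-0.71 to 0.023), Ccl25 (-1.51 to 0.16), Cxcl14 (-0.21 to 0.23), Cx3cl1 (-0.15 to 0.11), Cxcl17 (-0.48 to 0.15), Ccr1 (-0.70 to 0.043), Ccr9 (-0.28 to 1.08), Ackr3 (-0.10 to 0.042) and Ackr4 (-0.31 to 0.13). Without both IgG animal 1 and antibody animal 3, chosen after seeing the data, 997 genes had an unadjusted p under 0.05, 6 of them in the family, and Cxcl10 (-0.25), Cxcl9 (-0.18), Ccl17 (0.0023), Ccl22 (0.16), Ccl24 (0.074), Ccl25 (0.12), Cxcl14 (-0.30), Cx3cl1 (-0.026) and Ackr2 (0.027) reversed. The cause of these shifts was not tested.

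With the replicate number as a block, 36 of 46 genes were below 0, 6 had an unadjusted p under 0.05 and 361 did so over all genes. The labels do not say whether the numbers mark pairs. Of 4 correlations between same-numbered animals, 1 was over 0.1 (-0.344 to 0.293), and 2 of 8 animals correlated best with their own number. So few pairs cannot settle whether the animals were paired. Total-count scaling moved the share of unadjusted calls that were higher from 35.4% to 53.1%, while 0 members changed sign. The 4 animals per group and counts near 10 limit the genes below 1 CPM.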
